A study of Nothobranchius furzeri with 10 samples.

Results

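The 200 longest genes expressed in the brain of the turquoise killifish (Nothobranchius furzeri), by a length defined below, were followed across 10 RNA sequencing libraries. They were taken from 26739 annotated genes. Genes were kept if they averaged at least 5 CPM (read counts scaled to library size), lay outside the 200 most abundant genes and had reads in every library. This left 14298 genes, which were ranked by length, and the first 200 are called the long genes here. Length was the number of bases that the deposited counts and the deposited RPKM values (read numbers per unit of gene length and library size) imply for each gene. It is read here as transcript sequence and not as the span of the gene in the genome. The annotation that would show this was not given. The rule itself uses no treatment label.

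All 10 libraries came from brains of male fish of strain MZM-0410p aged 22 weeks. Per the perturbation labels, 5 libraries belong to the synthetic miR-101a group, dosed with 100 pmol, and 5 to the scrambled control group. The series' design text instead names an inhibitor of this microRNA, an antagomiR, so no direction of effect was assumed. The labels do not say how or when the agent was given, nor whether each library came from its own fish, and p-values here measure the spread between libraries, which may be technical. The libraries held 21708509 to 27086488 counted reads in the miR-101a group and 19598030 to 25598103 in the scrambled group. The labelled tissue could not be set against marker genes, because the gene identifiers are not paired with symbols, and no gene is given a name or a function below.

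A long transcript yields more sequencing fragments than a short one present in the same number of copies, so read counts rise with length and only values per length compare genes. In vertebrates, genes with very long transcripts include those for giant cytoskeletal, scaffold and extracellular matrix proteins, and many messenger RNAs of neurons carry long 3' untranslated regions. MicroRNAs act by pairing with sites that lie mostly in these regions, where they lower the stability and translation of the message.

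The long genes ran from 12175 to 88819 bases, with a median of 14094 bases, against a median of 3012 bases in the other 14098 ranked genes. The longest gene stood far apart, since the next had 26976 bases, and 13 genes exceeded 20000 bases. At the lower limit the last gene inside had 12175 bases and a mean of 40.0 CPM, and the first gene outside had 12159 bases and 22.6 CPM. The long genes were 1.399% of the ranked genes and held 3.80% of their reads.

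In CPM the long genes were abundant, and per length they were not. Their median level was 119.5 CPM, in a range of 5.34 to 497.5 CPM, against a median of 29.1 CPM in the other ranked genes. Per length, as RPKM computed anew from the counts and library totals, their median was 8.52, against 11.1 in the other ranked genes. The highest level per length among them was 35.1 RPKM and the lowest was 0.0772 RPKM, in the longest gene. Depth was ample for most, with 140 of the 200 at 1000 reads or more in every library and a median of 2807 reads per gene and library. The thinnest single value was 31 reads.

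The long genes moved up and down together between libraries, and the 2 treatment groups overlapped. Library medians were mostly lower in the miR-101a group, with miR-101a replicate 4 and scrambled replicate 1 as exceptions. For each gene the level in a library was set against the gene's mean over the 10 libraries, as log2 of the ratio. The median of this value over the 200 genes was -0.08, -0.08, -0.17, 0.12 and -0.23 in miR-101a replicates 1 to 5, and -0.12, 0.08, 0.11, 0.12 and 0.04 in scrambled replicates 1 to 5. Thus 5 libraries were below 0, namely miR-101a replicates 1, 2, 3 and 5 and scrambled replicate 1, and 5 were above it. The library nearest to 0 on the low side was at -0.08 and that on the high side at 0.04. This gap of 0.12 was smaller than the span of 0.14 within the low libraries, and the high libraries spanned 0.08. The cut at 0 is set by each gene's mean over the 10 libraries. In the other ranked genes the library medians stayed between -0.02 and 0.00. In bulk brain RNA, fewer cells of a type and less RNA per cell cannot be told apart. Neither can be told here from technical differences between libraries, and none of these was tested.

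**Figure D1:**
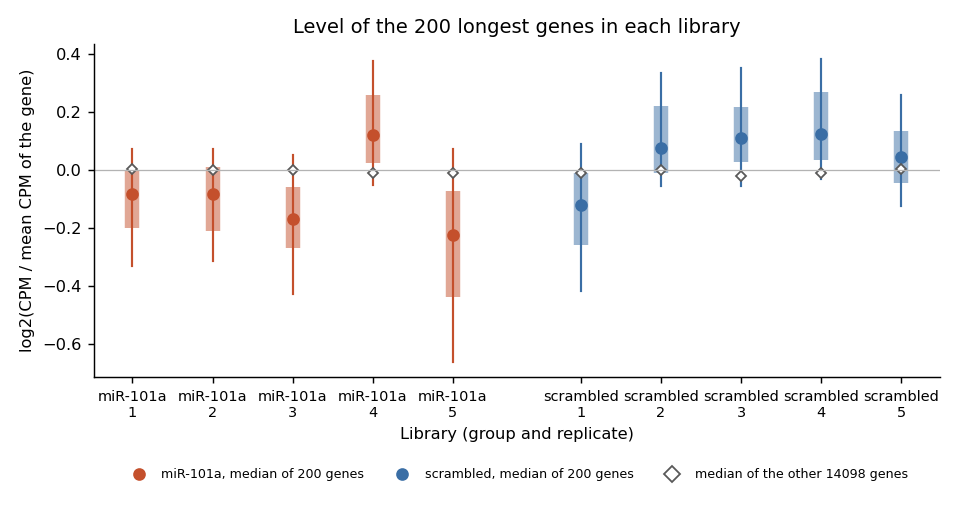
Level of the 200 long genes in each library, as log2 of CPM over the gene's mean CPM in the 10 libraries. Dots are medians over the long genes, thick bars the middle 50% and thin lines the 10th to 90th percentile, and open diamonds are the medians of the other ranked genes. Of the miR-101a libraries only replicate 4 has a median above 0, and of the scrambled libraries only replicate 1 has one below 0.

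Counted gene by gene, the same libraries stood out. In miR-101a replicate 4, 165 of the 200 long genes were above their own mean, against 31 to 59 in the other 4 miR-101a libraries. In scrambled replicate 1, 44 of them were above it, against 133 to 167 in the other 4 scrambled libraries. Among the miR-101a libraries, replicate 4 was the highest in 131 of the 200 long genes and in 20.4% of the other ranked genes. Among the scrambled libraries, replicate 1 was the lowest in 129 of the long genes and in 22.8% of the others. Of all 10 libraries, miR-101a replicate 5 had the lowest level in 95 long genes and in 20.4% of the others.

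As a part of each library, the long genes took 2.82%, 2.84%, 2.68%, 3.33% and 2.60% of all counted reads in miR-101a replicates 1 to 5. They took 2.80%, 3.28%, 3.31%, 3.33% and 3.17% in scrambled replicates 1 to 5. The means were 2.86% ± 0.281 in the miR-101a group and 3.18% ± 0.221 in the scrambled group (SD, n = 5 each). The difference of -0.32 percentage points was slightly larger than the pooled SD of 0.253, while the scrambled range lay almost wholly within the miR-101a range. No p-value is given for such sums over the long genes, since the set was chosen with results of these libraries known.

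Other properties of the libraries ran beside this split. The 200 most abundant genes, none of which is a long gene here, took 19.7% to 20.6% of the reads in the 5 libraries low in long genes and 18.8% to 19.5% in the other 5. A principal component analysis of 1000 highly variable genes other than the long genes gave a first axis with 31.7% of the variance, on which the 5 low libraries scored -27.1 to -4.28 and the other 5 scored 9.52 to 13.3. Read totals did not divide the same way, as the low set holds both the deepest and the shallowest library. The part of these properties in the levels of the long genes was not tested.

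The departure grew with length. When all ranked genes were put in blocks of 200 by length, the 10 library medians of the long genes spanned 0.35 on the log2 scale. The next block, of up to 12159 bases, spanned 0.22 and the one after it 0.21. Across the 70 other full blocks the span was 0.03 to 0.22, with a median of 0.06. In miR-101a replicate 5, the library lowest in long genes, the medians of the first 3 blocks were -0.23, -0.14 and -0.13. In scrambled replicate 4, the library highest in them, they were 0.12, 0.06 and 0.07. At the short end, in the block of 306 to 387 bases, the medians were 0.03 in miR-101a replicate 5 and -0.02 in scrambled replicate 4, so the order of these libraries was reversed there at a smaller size.

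**Figure D2:**
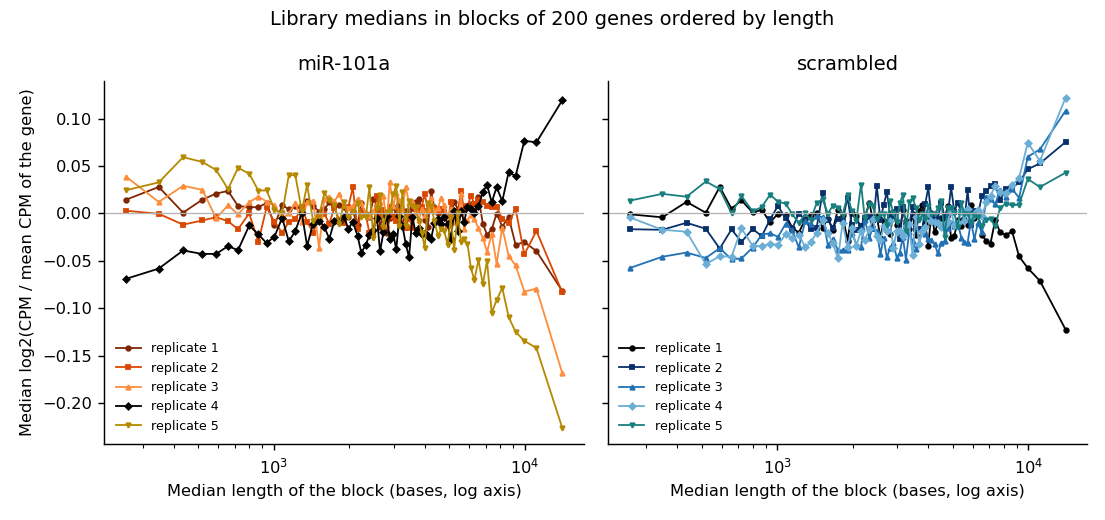
Median log2 of CPM over the gene's mean, for each library, in blocks of 200 ranked genes (the last block holds 98) placed at their median length on a log axis, with miR-101a libraries left and scrambled libraries right. The lines lie close to 0 over most lengths and spread at the long end, where miR-101a replicate 4 goes up to 0.12 and scrambled replicate 1 goes down to -0.12.

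Shorter genes of like CPM had smaller shifts. The 100 long genes in the middle 50% of their CPM, from 52.2 to 221.0 CPM, were set beside all other ranked genes in that range. Per length the classes were not alike. Median RPKM was 8.52 in these long genes and 12.5, 20.1 and 51.6 in the shorter classes below, in order of falling length. Between miR-101a and scrambled libraries, their median log2 fold change was -0.11, against -0.03 in 1184 genes from 6000 bases up to the long genes, 0.00 in 1475 genes of 3000 to 6000 bases and 0.02 in 1155 genes under 3000 bases. The median correlation between pairs of genes over the 10 libraries was 0.47, against 0.09, 0.02 and 0.06 in the same 3 classes. These values describe the classes, and no difference between them was tested.

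Setting miR-101a against scrambled libraries, 175 of the 200 long genes (87.5%) had a lower mean in the miR-101a group, and 0 differed past the threshold. In edgeR's quasi-likelihood test over 19094 genes, the smallest Benjamini-Hochberg adjusted p of a long gene was 0.88, with a background of 0% of genes called at an adjusted p of 0.05. DESeq2 and limma-voom also called 0 long genes, at backgrounds of 0.0903% and 0%. A fit of 6 libraries, without replicates 4 and 5 of miR-101a and replicates 1 and 2 of scrambled, called 38 long genes, all lower, at a background of 1.9%. Those 6 share their title numbers between the groups, and the left-out libraries include miR-101a replicate 4 and scrambled replicate 1. Of all genes tested, 49.2% had a lower mean in the miR-101a group. The long genes move together between the same 10 libraries, so these counts are not counts of independent genes. The median log2 fold change of the long genes was -0.13, against 0.00 over all genes, and 80% of the long genes lay between -0.38 and 0.01. The standard error of a fold change had a median of 0.10 in the long genes and 0.10 over all genes.

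At an unadjusted edgeR p below 0.05 there were 31 long genes, each with its lower mean in miR-101a libraries, or 15.5% of the set. Over all genes tested the share was 4.9%, made up of 2.43% lower and 2.47% higher. DESeq2 had 46 long genes at that unadjusted p, at a background of 5.61%. The limma-voom fit, which gave each library its own quality weight, had 57, of which 1 was higher, at a background of 7.08%. The 31 genes had log2 fold changes of -0.74 to -0.13. They share the same libraries and are not independent of one another. The count depended on single libraries. It was 92 without miR-101a replicate 4, where the background was 9.64%, and 70 without scrambled replicate 1, where the background was 6.55%. In these 2 libraries the long genes ran against their group, so a rise in the count without them follows from that. Without miR-101a replicates 1, 2, 3 and 5 it was 16, 18, 15 and 20, at backgrounds of 4.59%, 4.28%, 5.16% and 3.86%. Without scrambled replicates 2, 3, 4 and 5 it was 15, 14, 13 and 31, at backgrounds of 4.12%, 3.28%, 3.9% and 6.06%.

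Individual libraries of the 2 groups overlapped in every long gene, as they did in nearly all genes tested. No overlap between the groups' libraries was found in 0 long genes, where 0.655% of all genes tested were so divided. At so low a share, a count of 0 in a set of this size does not set the long genes apart. Without miR-101a replicate 4 the count was 18, at a background of 2.53%, and without scrambled replicate 1 it was 7, at a background of 1.77%. These 2 libraries were singled out because their long genes ran against their group. A rise over the background without them follows from that choice. Leaving out miR-101a replicate 2 or 5 gave 1, leaving out scrambled replicate 5 gave 3, and leaving out any other library gave 0. For these the share over all genes was not computed, so they are not read as a trait of the long genes.

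For most long genes the fit of all 10 libraries set a bound on the size of a difference. In 145 of the 200, the 95% interval of the fold change, taken from edgeR's test and unadjusted for the number of genes, stayed inside 1.5-fold both ways. The other long genes have intervals that reach past this bound. The share over all genes tested was not computed, so the count is not read as a trait of the long genes. The intervals also depend on the libraries used. When single libraries were left out, the median log2 fold change of the long genes ran from -0.17 to -0.10.

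**Figure D3:**
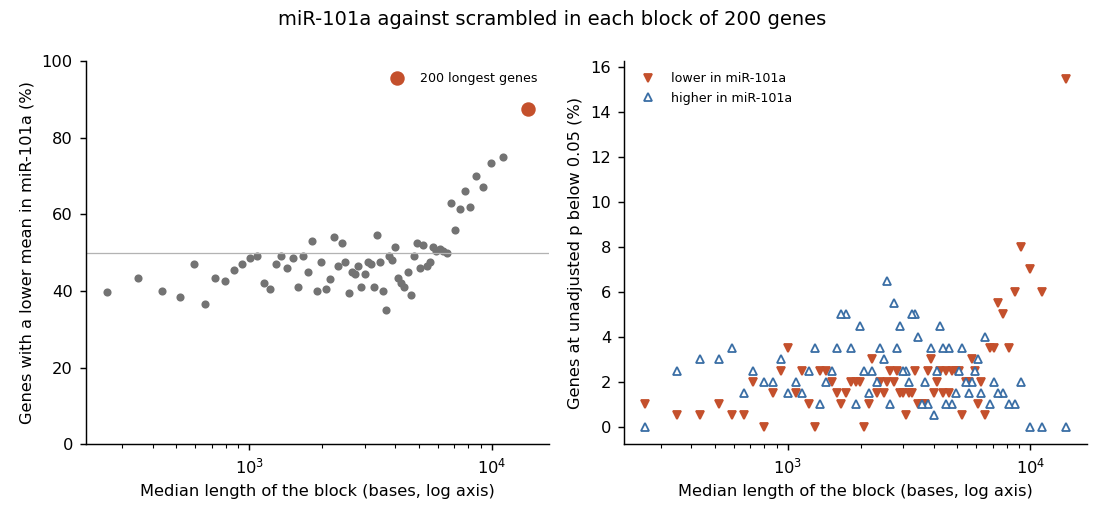
Percent of genes with a lower mean in the miR-101a group (left) and percent at an unadjusted edgeR p below 0.05, lower as filled and higher as open triangles (right), in blocks of 200 ranked genes at their median length on a log axis. The long genes stand at 87.5% on the left and at 15.5% lower on the right, above the other full blocks, of which the highest has 75% on the left. On the right they stand at 0% higher, as other blocks do too.

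The share of lower means fell off in the blocks next to the long genes. It was 75% in the second block and 73.5% in the third, while the 70 other full blocks ranged from 35% to 75%. Genes lower at an unadjusted edgeR p below 0.05 numbered 12 in the second block (6%) and 14 in the third (7%). The highest count in any other full block was 16 (8%). Over all genes tested, 2.43% were lower at that p. Within the long genes, the 50 longest had a median log2 fold change of -0.18 and 12 genes (24%) lower at that unadjusted p. The next sets of 50 had medians of -0.11, -0.10 and -0.11 and 6, 8 and 5 such genes (12%, 16% and 10%). Across the 200 long genes, length and log2 fold change had a Spearman correlation of -0.12, a description over genes that share the same libraries. By abundance, the 50 most abundant long genes had a median of -0.11 and 11 such genes (22%), and the 50 least abundant had -0.20 and 4 (8%).

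In a further edgeR fit the counts were kept, and the trend of each library with length entered as a scaling term per gene. The median log2 fold change of the long genes was then 0.0075, and 46.5% of them had a lower mean. Of these genes, 24 then had an unadjusted edgeR p below 0.05, 15 lower and 9 higher, at backgrounds of 2.09% and 2.91% and of 5% in all, and the number past an adjusted p of 0.05 was 0. This step removes a common direction of the long genes by construction, since the trend was fitted on genes that include them.

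The 2 long genes with the smallest p on the lower side show how the libraries lay. Nfu_g_1_010424, of 14721 bases, had 11.8, 11.6, 13.3, 15.995 and 12.3 CPM in miR-101a replicates 1 to 5 and 15.8, 15.9, 15.6, 16.6 and 17.5 CPM in scrambled replicates 1 to 5. Only miR-101a replicate 4 reached into the scrambled range. Its means were 13.0 ± 1.799 CPM in miR-101a and 16.3 ± 0.771 CPM in scrambled libraries (SD, n = 5 each). The fitted log2 difference was -0.32 (SE 0.09, edgeR adjusted p 0.88).

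Nfu_g_1_015083, of 12968 bases, had 86.4, 85.7, 84.3, 103.4 and 82.4 CPM in miR-101a replicates 1 to 5 and 88.0, 118.9, 114.1, 120.5 and 106.2 CPM in scrambled replicates 1 to 5. Here miR-101a replicate 4 was above its group, scrambled replicate 1 was below its own, and the groups overlapped through these libraries. The means were 88.5 ± 8.51 CPM in miR-101a and 109.5 ± 13.3 CPM in scrambled libraries (SD, n = 5 each). The fitted log2 difference was -0.31 (SE 0.09, edgeR adjusted p 0.88).

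On the higher side the smallest p belonged to Nfu_g_1_007790, of 12519 bases. It had 69.1, 73.9, 80.6, 66.2 and 56.4 CPM in miR-101a replicates 1 to 5 and 65.0, 67.0, 63.7, 62.5 and 50.5 CPM in scrambled replicates 1 to 5. The groups overlapped widely, with the lowest library of each group being its replicate 5. In the edgeR fit the log2 difference was 0.17 (SE 0.10, adjusted p 0.88).

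Nfu_g_1_000782, of 16343 bases, followed with 47.3, 53.8, 31.9, 48.5 and 16.3 CPM in miR-101a replicates 1 to 5 and 16.6, 33.5, 32.0, 37.1 and 16.6 CPM in scrambled replicates 1 to 5. Libraries near 16 CPM occurred in both groups. In the edgeR fit the log2 difference was 0.54 (SE 0.35, adjusted p 0.88).

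The longest gene of all, with 88819 bases, was among the least even. It had 19.2, 6.06, 4.97, 6.08 and 2.86 CPM in miR-101a replicates 1 to 5 and 5.00, 5.32, 4.20, 10.7 and 4.10 CPM in scrambled replicates 1 to 5. Each group had 1 high library, miR-101a replicate 1 and scrambled replicate 4. The former was among the libraries low in long genes, which set this gene apart from the shared pattern. The latter was the library highest in long genes. Its correlation with the median of the other long genes was 0.20. In the edgeR fit the log2 difference of the longest gene was 0.42 (SE 0.49, adjusted p 0.909).

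**Figure D4:**
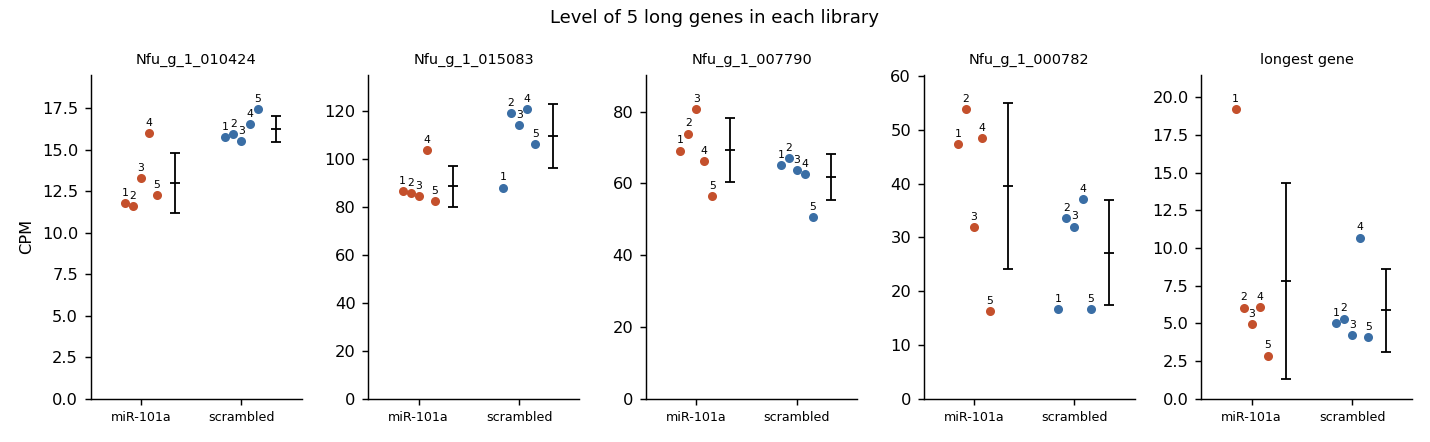
CPM of 5 long genes in each library, miR-101a left and scrambled right in each panel, with replicate numbers at the points and the mean ± SD (n = 5) as black bars; each axis starts at 0. The first 2 panels are lower in the miR-101a group, the next 2 higher, and the last is the longest gene with its high values of 19.2 and 10.7 CPM.

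Most long genes shared one profile over the libraries. Each was correlated with the median of the other long genes over the 10 libraries, a description in which all genes share the same libraries and their depth. The median correlation was 0.74, with 136 of 200 genes above 0.5 and 88 above 0.8. Between pairs of long genes the median correlation was 0.42 and 80.5% of pairs were positive, against 0.00 and 50.2% in the other ranked genes. Other full blocks reached at most 0.21 and 65.4%. A first principal component of the long genes held 54.8% of their variance, and that of the other ranked genes held 31.4% of theirs. On the latter the 5 libraries low in long genes scored -34.8 to -2.92 and the other 5 scored 6.95 to 13.9. The same division of libraries was thus present outside the long genes.

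Among the long genes that kept closest to this profile, the one ranked 98 in length had a correlation of 0.99. It had 121.7, 131.4, 111.5, 235.5 and 88.0 CPM in miR-101a replicates 1 to 5 and 113.6, 225.6, 218.4, 232.9 and 185.6 CPM in scrambled replicates 1 to 5. The 5 libraries low in long genes lay at or below 131.4 CPM and the other 5 at or above 185.6 CPM. This gene was picked for having the highest correlation, so such a division follows from the choice. In the edgeR fit the log2 difference was -0.51 (SE 0.28, adjusted p 0.88). The most abundant long gene, ranked 68, had a correlation of 0.98 and 368.5 to 592.8 CPM in miR-101a and 425.9 to 612.7 CPM in scrambled libraries.

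Some long genes did not follow it. A negative correlation was found in 18 of the 200, and 3 of these were below -0.5. The most negative, at -0.79, was the gene ranked 40, with 41.7, 39.0, 42.5, 35.3 and 45.0 CPM in miR-101a replicates 1 to 5 and 41.1, 38.8, 34.8, 38.4 and 42.5 CPM in scrambled replicates 1 to 5. The steadiest long gene, ranked 142, stayed between 183.0 and 191.9 CPM in miR-101a and between 181.7 and 185.9 CPM in scrambled libraries, where its highest value was 1.06 times its lowest over all 10. These genes were singled out after their values had been seen.

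**Figure D5:**
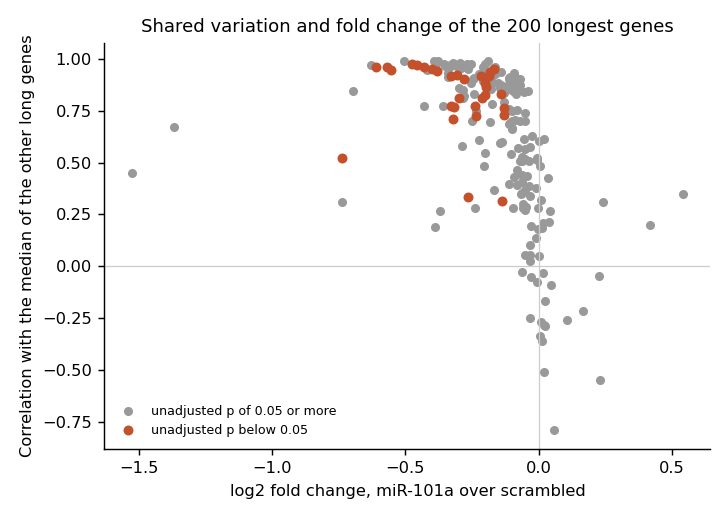
Correlation of each long gene with the median of the other long genes over the 10 libraries, against its log2 fold change of miR-101a over scrambled; red points have an unadjusted edgeR p below 0.05. Both axes come from the same counts. Of the 31 red points 29 lie above a correlation of 0.5.

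Variation between libraries of a group was somewhat larger in the long genes than in the other ranked genes. Their median coefficient of variation was 13.3% in miR-101a and 10.2% in scrambled libraries, against 9.14% and 7.996% in the other ranked genes. In the 70 other full blocks it was at most 10.9% in miR-101a and 9.78% in scrambled libraries. The biological coefficient of variation that edgeR fitted had a median of 11.8% in the long genes and 10.7% in the others. It reached up to 12.3% in the 70 other full blocks. Over all genes tested it was 12.7%, above the value of the long genes. Over all 10 libraries the highest CPM was typically 1.48 times the lowest in long genes and 1.33 times in all ranked genes.

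A few long genes varied far more, and some of them still followed the shared profile. Correlation with the median of the other long genes was 0.84 in the gene ranked 133 and 0.67 in that ranked 129. It was 0.45 and 0.31 in those ranked 87 and 124. In 8 of the 200 the highest library was more than 4 times the lowest, against 2.43% of all ranked genes. The widest range, 28.6 times, was in the gene ranked 87, with 14.1, 30.2, 95.4, 69.0 and 27.3 CPM in miR-101a replicates 1 to 5 and 33.98, 112.8, 48.6, 81.0 and 403.1 CPM in scrambled replicates 1 to 5. The gene ranked 124 had 16.025, 20.9, 159.9, 41.9 and 23.3 CPM in the same miR-101a libraries and 35.6, 110.2, 39.9, 82.8 and 169.8 CPM in the scrambled ones, so that scrambled replicate 5 was the highest library in both genes and miR-101a replicate 3 the highest of its group. The gene ranked 133 was at 1.41, 1.68, 1.77, 17.9 and 3.09 CPM in miR-101a replicates 1 to 5 and at 2.75, 6.93, 14.5, 9.28 and 8.08 CPM in scrambled replicates 1 to 5, where the 5 libraries low in long genes were its 5 lowest. A log2 fold change beyond 1 in size was found in 2 long genes, those ranked 87 and 129, at -1.53 and -1.37 with standard errors of 0.74 and 0.66, and both had an edgeR adjusted p of 0.88.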

How the data were processed

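Libraries were prepared from total brain RNA with a TruSeq RNA v2 kit, per the labels. Tools listed in the submitters' processing notes are STAR 2.4.1d, featureCounts 1.4.6-p4 and bcl2fastq 1.8.4. The genome build, annotation and strandedness were not given in the sources used here, which leaves values of overlapping genes and of near-identical copies uncertain. The authors deposited raw read counts per gene and RPKM values. Among 8924 genes averaging over 500 reads, the length implied by count and deposited RPKM varied by a median of 0.00172% between libraries if library totals were taken to run down the rows, and by 14.4% with each library's own total. RPKM were therefore used for lengths, which average over the 10 totals, and otherwise only in an alternative fit (limma-trend), and levels per length were recomputed. At low RPKM the rounding of the deposited values limits a length, by up to 396 bases, in the longest gene.

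Groups follow the perturbation label. Replicate numbers 1 to 5 follow record order and only name libraries. Counts were fitted in R 4.3.3 with edgeR 4.0.16 (filterByExpr, TMM, robust quasi-likelihood) over 19094 genes, with Benjamini-Hochberg adjustment over all of them; 200 of 200 long genes were tested. Gene levels, group means and overlaps used CPM of TMM-scaled library sizes. Library medians, shares of reads and gene means used column sums. Alternatives used DESeq2 1.42.0 and limma 3.58.1, with a loess span of 0.3 for the length trend. The limma-voom fit used quality weights per library and a robust variance step, so libraries did not count equally. On simulated data of the same size, with 18985 genes tested, edgeR detected 12% of the 50 genes given a 1.25-fold change. It detected 40% of the 50 given a 1.5-fold change and 68% of the 50 given a 2-fold change. The changed genes were picked from all genes tested and drawn independently, without a length trend. These shares therefore need not hold for the long genes, which vary together. A reference table of 38438 genes matched 0 identifiers, so no symbols, sequences or cell type markers were used. The rule for genes given by identifier took 2 per direction with the smallest p. The long genes, the comparisons and the alternatives were chosen with earlier results of these data known. Python 3.11.15 was used for summaries and figures.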

Additional observations from a re-analysis of the deposited data

Results flagged for a closer look

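Within each group of 5 libraries, 8 measures were examined for a library whose gap to its neighbour exceeded 0.71 of the group's range, an event that chance alone yields about once in 20. It occurred in 6 of 16 sets of libraries, and the measures share libraries and genes. The share of reads in the long genes and their median level were also examined, and neither had such a gap in either group. In miR-101a replicate 4, 165 long genes were above their own mean, with 31 to 59 in the other miR-101a libraries. In scrambled replicate 1 the number was 44, with 133 to 167 in the other scrambled libraries. Nfu_g_1_015083 was at 103.4 CPM in miR-101a replicate 4 and at 82.4 to 86.4 CPM in the others of its group. Nfu_g_1_007790 was at 50.5 CPM in scrambled replicate 5 and at 62.5 to 67.0 CPM in the others of its group. The longest gene was at 19.2 CPM in miR-101a replicate 1 while the rest of that group lay between 2.86 and 6.08 CPM. It was at 10.7 CPM in scrambled replicate 4 while the rest of that group lay between 4.10 and 5.32 CPM.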

How the results depend on the processing

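The number of long genes past an adjusted p of 0.05 was 0 in 21 of 23 alternatives, including DESeq2, limma-voom, other size factors and filters, other cuts in length or abundance, and each library left out. The exceptions use the 6 libraries whose title numbers, 21, 22 and 23, occur in both groups, so that replicates 4 and 5 of miR-101a and replicates 1 and 2 of scrambled are left out. With a replicate block on these numbers 36 long genes passed (35 lower), and 38 with no replicate block (all lower), at backgrounds of 1.74% and 1.90%. No label says that these numbers pair libraries, and deviations of same-numbered libraries correlated at 0.01, -0.08 and -0.13. At an unadjusted p below 0.05 the counts there were 113 and 100, at backgrounds of 10.2% and 9.16%. With all libraries the count was 31, at a background of 4.9%, and 18 for the 100 longest genes. It was 57 in limma-voom with library weights, at 7.08%, and 13 to 92 when single libraries were left out, at 3.28% to 9.64%. The cause of the other shifts was not tested; the 100 longest are fewer genes. The median log2 fold change was 0.0075 with the length trend removed, by construction, and -0.20 to -0.08 in the other alternatives. Counts without overlap were 0 to 18 when single libraries were left out, with the 18 at a background of 2.53%. The coefficient of variation was 11.8% as a mean of both groups, 10.2% for the 400 longest genes, and 9.66% to 12.6% when single libraries were left out. The share of reads differed by -0.44 to -0.21 percentage points and the library medians by -0.18 to -0.10 on the log2 scale in all alternatives run. The 4 genes given by identifier kept their sign in 76 of 76 alternatives, and 3 of these passed an adjusted p of 0.05, all with the 6 libraries. These genes were chosen by their p in the main fit, and the alternatives reuse its libraries. A kept sign was therefore likely beforehand. Centring on the median of all ranked genes, the removed trend in pair correlations and leaving out libraries for levels, overlaps and variation were alternatives chosen after seeing the data.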

Other observations

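With the trend of each library with length subtracted, the median correlation between pairs of long genes was -0.01 and 49.4% of pairs were positive, and subtracting each library's median over the long genes gave -0.01 and 49.4% as well. Both steps take out the shared level of the long genes by construction. The spread of single long genes within a library, from the 10th to the 90th percentile of log2 of CPM over the gene's mean, was 0.73 in miR-101a replicate 5 and 0.38 to 0.48 in the other miR-101a libraries. It was 0.51 in scrambled replicate 1 and 0.38 to 0.41 in the other scrambled libraries. In the other ranked genes the same spread was 0.61 in miR-101a replicate 5 and 0.35 to 0.40 in the remaining 9 libraries.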
